A study of Aspergillus nidulans with 4 samples.

Results

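Ergosterol is the main sterol of fungal membranes, where it takes the place that cholesterol has in animals. The pathway builds isoprenoid units from acetyl-CoA through mevalonate, joins them to squalene, closes the ring system to lanosterol, and then removes methyl groups and moves double bonds in the endoplasmic reticulum. Several of these late steps use oxygen, heme and electrons passed on by cytochrome b5 and its reductases, and surplus sterol is stored as esters. Azole antifungal drugs block the 14-demethylase of this pathway.

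Here 7 sterol biosynthesis genes of Aspergillus nidulans were followed in a strain without mpkA and in its parent. They are the genes whose annotation in the authors' deposited table mentions ergosterol or sterol biosynthesis, 7 of 10930 genes and RNA genes listed. The text matched 9 genes, and 2 of these were left out because their annotation places them in the peroxisome. The rule also excludes the genes AN1592 to AN1599, none of which matched the text. The rule reads the annotation text and no expression value.

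MpkA is the mitogen-activated protein kinase of the fungal cell wall integrity pathway. Strain AN1404 has the genotype -mpkA and strain AN1405 is labelled as its parental strain, with 2 libraries each. Both were grown without added stress in yeast extract and glucose at pH 3.3 and 28 °C, in a seed culture of 12 hours and then for about 20 hours to late exponential phase, and mycelium was frozen for RNA. The submitters looked for unknown functions of the kinase. Further alleles of either strain, the number of independent deletion clones, and which libraries are biological and which technical replicates are not stated in the labels, so the tests reflect how much these 4 libraries vary, and part of that may be technical.

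The libraries of each strain are called a and b, and their reads were recovered from the deposited means. Reads on genes ranged from 31609185 to 34871842 per library. The deleted gene mpkA (AN5666) had 6 and 3 reads in the deletion libraries against 6993 and 6437 in the parental ones. Conidiation genes mark spore-forming cells among hyphae. The 7 markers summed to 835 and 790 normalized reads in deletion libraries a and b, against 1858 and 1734 in parental libraries a and b. These were 0.0024% and 0.0022% of deletion reads and 0.0061% and 0.0057% of parental reads. Of these markers 4 were lower, 1 higher and 2 not called, and dewA had no more than 11 reads in any library. Most of the parental sum was abaA, with 127 and 125 normalized reads in the deletion libraries against 1153 and 1120. Per kb of gene span abaA had 443 normalized reads in the parent, about the level of the median gene there, and 49 in the deletion strain. The higher marker was yA, at 429 and 408 against 104 and 93. The part of these markers in the sterol results was not tested. In bulk RNA, fewer cells of a type and less RNA per cell cannot be told apart.

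Normalized reads below are reads divided by the library's size factor, the scale of the authors' comparison. A gene counted as called when its q-value, the false discovery rate in the authors' deposited table, was under 0.05. All 7 sterol genes were called, 5 higher and 2 lower in the deletion strain, against a background of 72.2% of 10505 genes called. Higher calls made up 36.3% of all genes tested and lower calls 35.9%. The libraries of the strains did not overlap in any of the 7 genes, which was also so for 87.7% of all genes tested, 43% higher and 44.7% lower. edgeR on the recovered reads made the same 5 higher and 2 lower calls, where it called 86.5% of 9338 genes, 42.5% higher and 44% lower. Changes of at least 2-fold were seen in 3 of the 7, 2 higher and 1 lower, against 9.12% of all genes higher and 18.1% lower by that much (27.2% in all, and 30.8% with edgeR). The median log2 change of the 7 was 0.22, beside -0.01 over 10139 genes with reads in both strains.

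**Figure D1:**
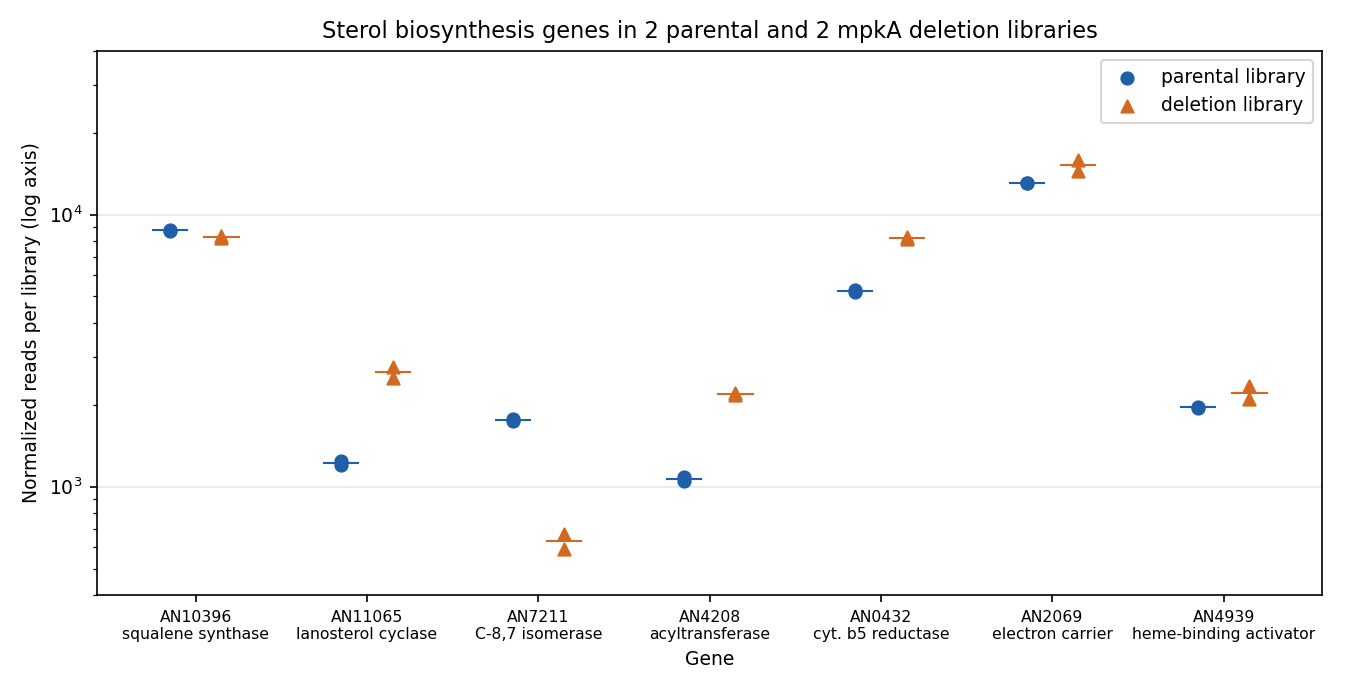
Normalized reads per library (log axis) of the 7 sterol biosynthesis genes, with circles for the 2 parental libraries, triangles for the 2 deletion libraries and a bar at their mean. AN11065, AN4208 and AN0432 lie clearly higher in the deletion libraries and AN7211 lower, while AN10396, AN2069 and AN4939 differ little.

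The largest change in the set was the fall of a sterol isomerase. AN7211 (positions 668555 to 669505 on the minus strand, the deposited tables giving no chromosome) is annotated as a putative C-8,7 sterol isomerase, the enzyme that moves a double bond in the sterol ring late in the pathway. It had 671 and 590.5 normalized reads in deletion libraries a and b, against 1774 and 1737 in the parental pair. Both deletion libraries lay below both parental ones, and the closest libraries of the 2 strains still differed 2.59-fold. The authors' deposited table listed a 2.78-fold fall with a q-value of 1.69e-90. The quasi-likelihood test of edgeR on the recovered reads gave a log2 change of -1.50 (SE 0.05, adjusted p = 1.04e-13). The 2 deletion libraries differed from each other 1.14-fold, the widest spread within a strain among the 7 genes. A fall at least as large was found for 15.8% of all genes tested.

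Other genes annotated for sterol isomerisation did not fall with it in the authors' comparison. AN0451, which carries the RefSeq symbol erg2 and is annotated as a putative C-8 sterol isomerase, had 2589 and 2548 normalized reads in the deletion libraries against 2577 and 2552 in the parental ones, and the strains overlapped (q = 1 in the authors' deposited table), although under library totals edgeR put it lower by a log2 change of -0.21 (adjusted p = 1.29e-05). Within each library the level of AN7211 can be set against that of AN0451, which does not depend on how libraries are scaled. Reads per kb of gene span gave a ratio of AN7211 to AN0451 of 0.274 and 0.245 in the deletion libraries against 0.729 and 0.721 in the parental pair. AN0451 was thus above AN7211 per length in all 4 libraries, and by a wider margin in the deletion strain. A further pair, AN0851 and AN9496, is annotated from domains alone with cholestenol delta-isomerase activity. AN0851 had 320.3 and 347.8 normalized reads without the kinase, against 170.6 and 187.3 in the parent, and AN9496 had 1287 and 1349 against 1018 and 1080.3. Both were called higher in the authors' deposited table, by 1.87-fold (q = 3.03e-10) and 1.26-fold (q = 4.13e-06), and each overlaps a gene on the opposite strand.

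The ring-closing enzyme was higher in the deletion strain. AN11065 (positions 1306241 to 1308786, plus strand) is a putative oxidosqualene-lanosterol cyclase, which folds the linear squalene epoxide into the first sterol. It had 2747 and 2517 normalized reads without the kinase, against 1242 and 1205 in the parent. Every deletion library was above every parental one, by at least 2.03-fold. The authors' deposited table gave a 2.15-fold rise (q = 6.17e-35), and edgeR a log2 change of 1.09 (SE 0.04, adjusted p = 4.39e-13). A second gene annotated for the same activity, AN8249, was nearly silent in both strains, with 12 reads over the 4 libraries (q = 0.986 in the authors' deposited table), so the reads of this step came almost wholly from AN11065.

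Squalene synthase, which joins farnesyl units to squalene and so commits them to sterols, had the smallest change of the 7 in the authors' comparison. The gene AN10396 (positions 918677 to 920651, minus strand) carries the RefSeq symbol erg9. It had 8173 and 8359.8 normalized reads without the kinase, against 8669 and 8809.55 in the parent. The strains were close, with the nearest libraries 1.04-fold apart. The authors' deposited table listed it as 1.06-fold lower with a q-value of 0.0486, just under the threshold. edgeR gave a log2 change of -0.10 (SE 0.03, adjusted p = 0.00402). Library totals gave a larger fall in edgeR, with a log2 change of -0.29 (adjusted p = 9.35e-09). The call was lost with DESeq2 (adjusted p = 0.0503) and without parental library b (adjusted p = 0.0562, edgeR), and adjusted p ranged from 9.35e-09 to 0.812 over 12 settings.

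The gene for sterol storage rose by about as much as the cyclase. AN4208 (positions 1742838 to 1745605, minus strand) is annotated through its orthologs as an ergosterol O-acyltransferase, which esterifies sterol for storage in lipid particles. It had 2175 and 2215 normalized reads without the kinase, against 1083 and 1053 in the parent. Neither group spread by more than 1.03-fold, while the nearest libraries of the strains lay 2.01-fold apart. The authors' deposited table gave a 2.06-fold rise (q = 8.84e-62), and edgeR a log2 change of 1.02 (SE 0.04, adjusted p = 2.95e-13). The gene overlaps AN4209 on the opposite strand over 163 bp. The library kit does not mark strand, so strand cannot tell which gene the reads in that stretch came from. How such reads were counted is not stated. AN4209 itself changed the other way, with a log2 change of -0.36 (q = 2.49e-07) in the authors' deposited table.

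Among the genes that serve the pathway with electrons, the reductase changed more than the carrier. AN0432 (positions 3566599 to 3567967, plus strand) is annotated by orthologs with cytochrome-b5 reductase activity and a role in the response to oxidative stress as well as in ergosterol synthesis. It had 8109.85 and 8296 normalized reads without the kinase, against 5178 and 5266 in the parent. The authors' deposited table gave a 1.57-fold rise (q = 6.02e-59), and edgeR a log2 change of 0.63 (SE 0.03, adjusted p = 3.43e-12). Rises at least this large were found for 20.0% of all genes tested.

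AN2069 (positions 2758119 to 2759512, minus strand) is annotated by orthologs as an electron carrier of the endoplasmic reticulum membrane. It was the most abundant of the 7 per length, with 14515 and 15859.5 normalized reads without the kinase, against 13014.5 and 13079 in the parent. The strains did not overlap, but the deletion libraries differed from each other by 1.09-fold and the nearest libraries of the 2 strains by 1.11-fold. The authors' deposited table gave a 1.16-fold rise (q = 0.0025), and edgeR a log2 change of 0.20 (SE 0.03, adjusted p = 4.45e-05). Under scaling to library totals the edgeR log2 change was 0.0045 (adjusted p = 0.901), and the call was lost, within a range of 8.53e-19 to 0.901 over 12 settings.

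AN4939 (positions 494983 to 496128, minus strand) is annotated by orthologs as a heme-binding enzyme activator that regulates ergosterol synthesis. It had 2099 and 2337 normalized reads without the kinase, against 1942 and 1967 in the parent. The spread between the deletion libraries, 1.11-fold, exceeded the 1.07-fold gap between the nearest libraries of the strains. The authors' deposited table gave a 1.14-fold rise with a q-value of 0.0397, and edgeR a log2 change of 0.16 (SE 0.04, adjusted p = 0.00268). The call was lost without deletion library b, where the edgeR log2 change was 0.09 (adjusted p = 0.0757). Leaving out parental library a also ended it, at an edgeR adjusted p of 0.0652. Under library totals the direction turned in edgeR, with a log2 change of -0.032 (adjusted p = 0.489), in a range of adjusted p from 8.24e-08 to 0.679 over 12 settings. Its end overlaps AN4940 on the opposite strand over 21 bp, and AN4940 was higher by 0.82 on the log2 scale (q = 3.56e-58) in the authors' deposited table.

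**Figure D2:**
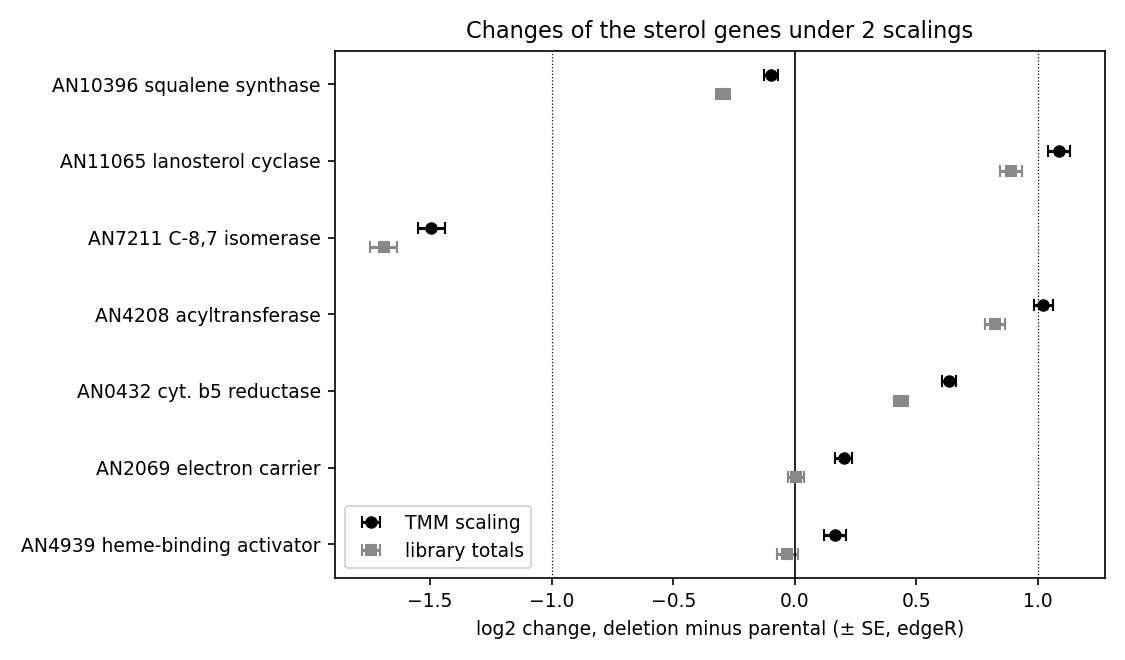
Log2 change in the deletion strain relative to the parental strain, with its standard error from edgeR, for each of the 7 genes under TMM scaling (black circles) and under library totals (grey squares); dotted lines mark 2-fold. Library totals shift every gene to the left by about the same amount, which takes AN2069 to 0.0045 and AN4939 to -0.032, and leaves AN11065, AN4208 and AN0432 higher and AN7211 lower.

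The small changes depended on the scaling in size and, for AN4939, in direction. TMM, the trimmed mean scaling of edgeR, put the median log2 change of all genes at -0.02, and library totals put it at -0.21. The median of the 7 sterol genes moved from 0.20 to 0.0045, a shift of about the same size, as a change of scaling moves all genes alike. Under library totals 3 sterol genes were higher, 2 lower and 2 not called, where 32.8% of all genes were higher and 53.5% lower, and none of the 3 reached 2-fold: AN11065 had a log2 change of 0.89 and AN4208 of 0.82. The fall of AN7211 was -1.69 on that scale.

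Levels relative to squalene synthase, taken within each library per kb of gene span, avoid the choice of scaling. This comparison was chosen after the values were seen and carries no test. AN0432 stood at 1.43 of squalene synthase in both deletion libraries and at 0.862 in both parental libraries, so the order of these genes was reversed between the strains. AN11065 stood at 0.261 and 0.234 against 0.111 and 0.106, and AN4208 at 0.190 and 0.189 against 0.0891 and 0.0853. AN7211 went the other way, at 0.170 and 0.147 in the deletion libraries against 0.425 and 0.410 in the parental ones. AN2069 stood at 2.52 and 2.69 against 2.13 and 2.10, and AN4939 at 0.443 and 0.482 against 0.386 and 0.385.

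**Figure D3:**
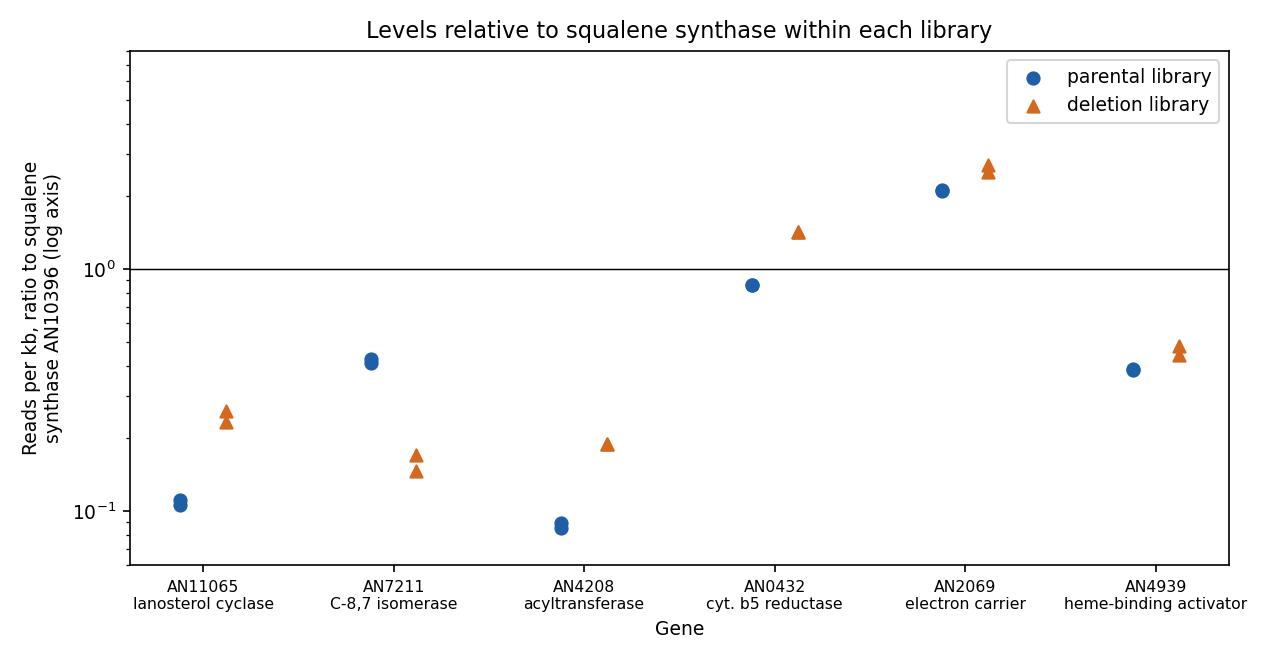
Reads per kb of each of 6 sterol genes divided by those of squalene synthase (AN10396) in the same library, on a log axis, with circles for parental and triangles for deletion libraries; the line marks equal levels. AN0432 lies below the line in both parental libraries and above it in both deletion libraries, and AN7211 is the gene whose ratio is lower in the deletion strain.

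The 7 genes spanned a wide range of levels, and their order differed between the strains. Per kb of gene span, parental means of normalized reads fell from 9359 for AN2069 through 4425 for AN10396, 3815 for AN0432, 1846 for AN7211, 1705 for AN4939 and 481 for AN11065 to 386 for AN4208. In the deletion strain the order was AN2069 at 10895, AN0432 at 5992, AN10396 at 4186, AN4939 at 1936, AN11065 at 1034, AN4208 at 793 and AN7211 at 663. No neighbours in either order overlapped between their libraries. The isomerase thus moved from the fourth to the last place, and from above 82.8% of all genes tested to above 59.8%. The median gene had 443 normalized reads per kb in the parent and 412 in the deletion strain, so AN4208, the least abundant in the parental strain, stood below that median there and above it in the deletion strain. Together the 7 genes held 0.108% and 0.109% of parental reads and 0.109% and 0.114% of deletion reads.

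The genes lie apart from each other. None of the 27 nearest genes examined, up to 2 on either side by the RefSeq order of the ASM1142v1 assembly, was itself one of the 7. Of these neighbours 10 were higher, 11 lower and 6 not called, close to the 36.3% higher and 35.9% lower among all genes tested. Neither neighbour next to AN7211 was called, but both had few reads: over the parental libraries AN7212 had 0 and AN10907 had 92. Those next to AN11065, AN8259 and AN11071, were both lower (log2 changes of -1.19 and -0.43 in the authors' deposited table).

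Other genes were found by the word sterol in their annotation and described by counts. Of 42 such genes, 41 were tested and 19 were higher, 16 lower and 6 not called, with a median log2 change of 0.09. Of all genes tested, 36.3% were higher and 35.9% lower. By at least 2-fold 2 were higher and 8 lower, beside 9.12% and 18.1% of all genes. The list is wider than the pathway. Of the 2 rises, AN2877 is annotated for sterol transport and AN10764 was left out of the set for its peroxisome text. Among the 8 falls, AN4601, AN5614 and AN8522 are annotated for sterol glucosylation, membrane sterol distribution and sterol deacetylation. Under library totals edgeR had 13 higher and 19 lower of 39, beside the 32.8% and 53.5% of all genes. The 3 largest changes in this list were falls. AN3638 and AN8907, both putative C-4 sterol methyl oxidases, fell 50.7-fold and 25.2-fold by the authors' deposited table, which lists q as 0 for both. The libraries of AN3638 had 111.2 and 119.7 normalized reads against 5977 and 5739, and AN3638 overlaps AN3637 on the opposite strand over 354 bp. AN1593, a putative HMG-CoA reductase isozyme, had 2 reads over both deletion libraries against 73 in the parental ones, a ratio of 29.3 (95% exact binomial interval 7.83 to 247, counting error only). AN1593 lies in the range AN1592 to AN1599, which the rule of the set excludes and the word lists do not.

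Where the annotation gave several genes for 1 step, some moved together and some apart. Both C-3 sterol dehydrogenases, AN7575 and AN8032, rose, by 1.52-fold (q = 9.53e-31) and 1.36-fold (q = 1.75e-17) in the authors' deposited table. Both HMG-CoA reductase isozymes, AN3817 and AN1593, were lower, but nearly all reads came from AN3817, with 31390 over the 4 libraries against 75. AN3817 fell 1.19-fold in the authors' deposited table. For the C-4 methyl oxidases, AN6973 and AN6506 rose 1.12-fold and 1.33-fold in the authors' deposited table, while AN3638 and AN8907 fell, and under library totals edgeR gave AN6973 a log2 change of -0.05 (adjusted p = 0.121). For the 14-demethylases, AN8283 had 9907 and 9635 normalized reads in the deletion libraries against 6416 and 6034, and AN1901 had 1078 and 1172 against 4083 and 4079.6. These are a 1.57-fold rise (q = 3.49e-51) and a 3.63-fold fall (q = 2.95e-245) in the authors' deposited table. The ratio of AN1901 to AN8283 per kb was 0.105 and 0.117 in the deletion libraries against 0.611 and 0.650 in the parental pair.

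**Figure D4:**
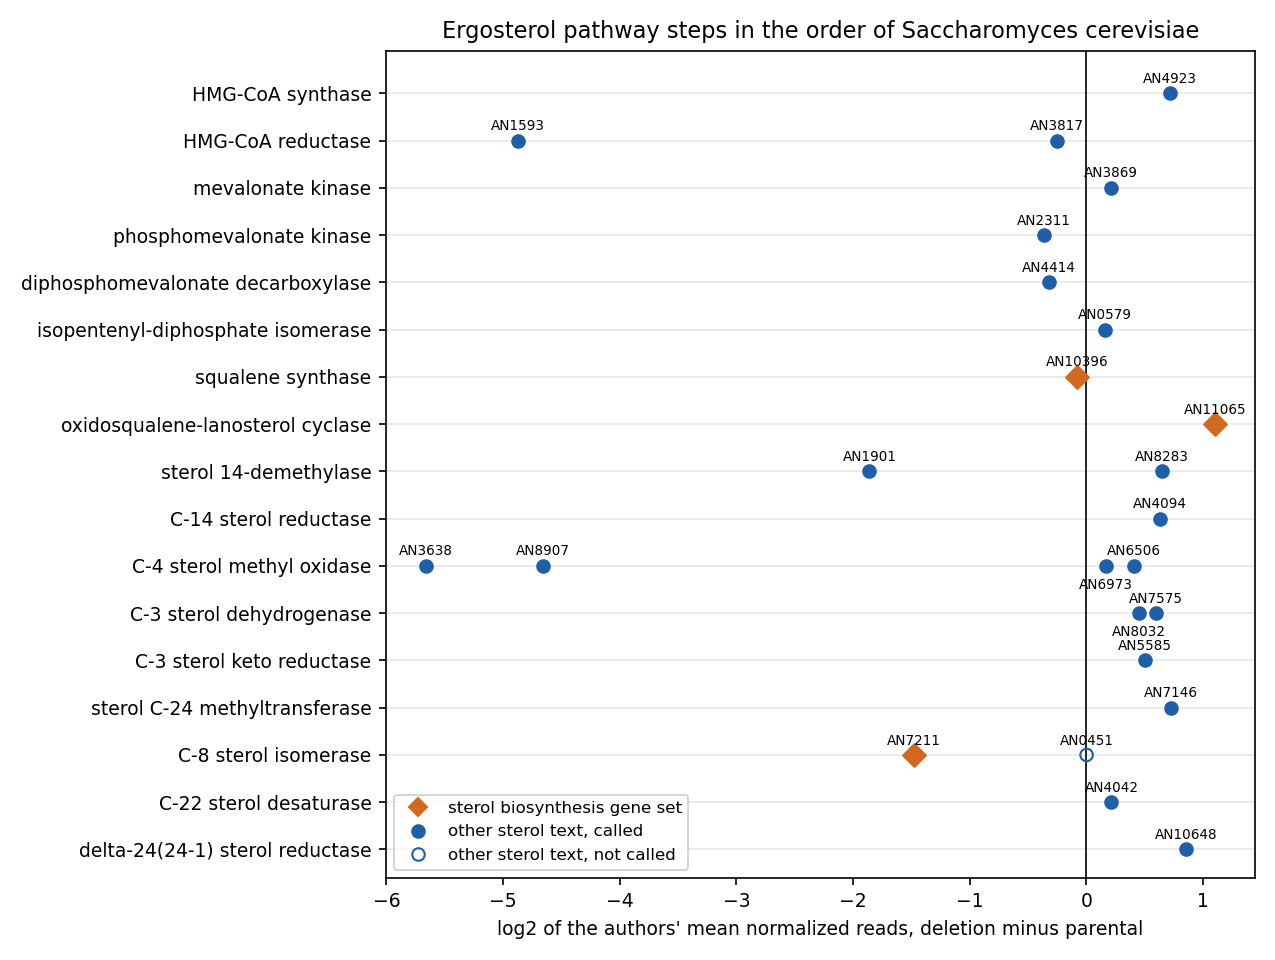
Log2 of the authors' mean normalized reads, deletion minus parental, for genes whose annotation names a step from HMG-CoA synthase to the last sterol reductase, ordered as known from Saccharomyces cerevisiae; diamonds are genes of the sterol biosynthesis set, filled symbols were called, and genes with 20 reads or fewer over the 4 libraries are left out, as are genes known for a step from domains alone. At the steps with 1 plotted gene, changes lie between -0.37 and 0.85 except for the cyclase AN11065 at 1.11. The plotted falls beyond 2-fold all lie at steps with several genes. AN1593 among them is in the range AN1592 to AN1599 that the rule of the set excludes. AN2684 (RefSeq symbol erg4A), whose annotation names no step, is not plotted and had a log2 change of -1.06.

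Genes found by words for the isoprenoid precursors moved in both directions. Of 10 genes with mevalonate, isopentenyl, farnesyl or geranyl words, 5 were higher, 4 lower and 1 not called, with a median log2 change of 0.02, and 6 of the 10 also stood in the sterol word list. AN1981, AN3747 and AN5760 among them are annotated for attaching geranylgeranyl groups to proteins and not for making precursors. Under library totals 0 were higher and 5 lower, beside 32.8% and 53.5% of all genes. HMG-CoA reductase AN3817 (hmg1) fell 1.19-fold (q = 2.68e-10) and HMG-CoA synthase AN4923 (erg13) rose 1.65-fold (q = 4.59e-79) by the authors' deposited table. HMG-CoA synthase stood in the sterol word list and not among the 10, where the largest called changes after AN1593 were of phosphomevalonate kinase AN2311, with a log2 change of -0.37, and diphosphomevalonate decarboxylase AN4414, with -0.32. The regulatory list held 1 gene, AN7661, annotated for binding sterol response elements, which was 1.17-fold higher (q = 3.55e-07) in the authors' deposited table and not called under library totals.

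Lists of neighbouring pathways were counted in the same way, to be read beside the 36.3% of all genes higher and 35.9% lower in the authors' comparison, and 32.8% and 53.5% under library totals. Of 21 genes found by words for ubiquinone synthesis or dolichol, 16 were higher, 4 lower and 1 not called (median log2 change 0.51). Library totals left 14 higher and 6 lower. Ubiquinone and dolichol draw on the same isoprenoid units, but the list is wider than their synthesis. AN1455, AN5902, AN7426 and AN7472 are annotated for protein N-linked glycosylation, and AN1811 and AN2303 for GPI anchor synthesis. The largest log2 changes of this list in the authors' deposited table were 1.96 for AN5888, annotated for the first transfer onto dolichyl phosphate, -1.60 for AN4071 of dolichol synthesis and 1.22 for AN1999, a ubiquinone methyltransferase. Of 26 sphingolipid genes, 14 were higher, 6 lower and 6 not called (median 0.18), and library totals gave 9 higher and 10 lower. The authors' deposited table had log2 changes of 1.06 for AN5688, a glucosylceramide methyltransferase by orthology, -0.76 for the ceramide hydroxylase AN0918 and 0.75 for the long chain base kinase AN1176. Of 6 heme synthesis genes 4 were higher and 2 lower under both scalings (median 0.58). The log2 changes in the authors' deposited table were 1.95 for AN4774, whose annotation is of siroheme rather than heme synthesis, -1.10 for AN5130 (hem13) and 0.88 for the uroporphyrinogen synthase AN10455.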

How the data were processed

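The authors' deposited tables hold, per gene and strain, a signal that is the mean over 2 libraries of reads divided by size factors. Bowtie2, HTSeq and DESeq are named per the submitters' processing notes; their versions, the genome build and how reads were counted are not stated there. The ratio (fold) and the p-values and q-values are the authors', from their deposited 2-strain table, parental over deletion strain, with the sign turned here. Of the per-strain columns, 2 belong to no sample of the series and were not used.

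A strain's mean is given in both tables, scaled differently. Solving them together for whole reads gave 1 solution for 10930 of 10930 genes (100%) in each strain, within 0.0001 normalized reads, and the libraries, called a and b, carry no replicate number. A simpler check of single columns for whole reads passed for the deletion strain only. The recovery and the fits were tested on simulated data. On these reads edgeR 4.0.16 (R 4.3.3; TMM, filterByExpr, Benjamini-Hochberg over 9338 genes) gave log2 changes and standard errors, the change over the square root of F. Alternatives were DESeq2 1.42.0, limma 3.58.1, other scalings, no filter, a fixed coefficient of variation and leaving out each library. With 2 libraries against 2 an exact permutation test cannot go below p = 0.333. Symbols and gene order come from RefSeq (7 of 7 genes matched). The genes, lists and tests were chosen with earlier results of these data known. Promoter motifs were not analysed here. Every gene of the set is named, the genes of the same annotated step beside it, and the 3 largest called changes of each other list. The pathway steps were ordered from the annotation after the values were seen.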

Additional observations from a re-analysis of the deposited data

How the results depend on the processing

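The rises of AN11065 and AN4208 and the fall of AN7211 were called in all 12 settings on recovered reads, and that of AN0432 in 11, the exception being a coefficient of variation of 0.2 (adjusted p = 0.0632, edgeR). AN2069 was called in 9, AN10396 in 8 and AN4939 in 7. AN4939 reversed under library totals (log2 change -0.032). The count of 5 sterol genes called higher was 3 under library totals, 3 with a coefficient of variation of 0.1, 2 with 0.2, 3 with biosynthesis text only and 2 at 2-fold, and 4 to 5 without 1 library. The count of 2 called lower was 1 with DESeq2, with either coefficient of variation (0.1 or 0.2), at 2-fold and at q under 0.01, and 1 to 2 without 1 library (1 without parental library b). The 2 rises of 2-fold became 0 under library totals. With a coefficient of variation of 0.2, 1601 of all genes were higher and 2494 lower, in place of 3810 and 3775. Under library totals the precursor list had 0 higher, the regulatory list 0 higher, and the sphingolipid list 9 higher and 10 lower. The cause was not tested. No paired analysis was possible because the recovered libraries carry no replicate number. The promoter motif count was not run. A lone library of a strain was assumed to vary like the other strain's pair.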
